A study of Homo sapiens with 4 samples.

Results

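The genes that run the cell cycle of HEK293T cells, a human embryonic kidney line, were compared between cells whose RNA polymerase II carried a T4A or a WT C-terminal domain (CTD). The 42 genes were taken by name and not by a cut on their values, though earlier results of these data were known. They encode the D, E, A, B, F and G2 cyclins, the kinases CDK1, CDK2, CDK4 and CDK6, inhibitors of these kinases, the CDC25 phosphatases with the opposing kinases WEE1 and PKMYT1, the E2F and DP transcription factors, the pocket proteins RB1, RBL1 and RBL2, and the degradation and adaptor proteins CDC20, FZR1, SKP2, CKS1B and CKS2. By the phase in which they are best known to act or to peak, 13 were set down as G1/S genes, 12 as G2/M genes and 17 as neither. All 42 were found by symbol among 62700 gene identifiers, and all 42 were among the 18139 genes with enough counts to be tested.

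T4A cells received RPB1, the catalytic subunit of the polymerase, with the threonine at position 4 of the CTD heptad repeats replaced by alanine, whereas WT cells received RPB1 with an unaltered CTD. In both groups the construct resisted α-amanitin, was brought in by transient transfection, and was followed 1 day later by 2.5 µg/ml of the toxin for 48 hours, which removes the cell's own RPB1. There were 2 libraries of poly(A) RNA per group. Cells without a construct or without the toxin were not analysed here, and HEK293T cells carry the SV40 large T antigen, a viral protein that binds the pocket proteins, in both groups.

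Progress through the cycle is driven by cyclins, which switch on their partner kinases. In G1, cyclin D with CDK4 or CDK6 and then cyclin E with CDK2 phosphorylate the pocket proteins, which lets E2F factors turn on genes for DNA synthesis. Cyclin A and cyclin B with CDK1 then carry the cell into mitosis under the control of WEE1 and CDC25, and the anaphase-promoting complex with CDC20 or FZR1 destroys the cyclins at its end.

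The libraries held 19257217 to 33063535 counts, and a member had between 24 and 6760 counts in a library. POLR2A, the gene of RPB1, had 5378 and 5477 CPM (counts per 1000000 of the TMM-scaled library total) in T4A libraries and 3772 and 2764 CPM in WT libraries, or 0.73 ± 0.08 (SE) as a log2 fold change, with an adjusted p of 7.23e-07. These reads come from the transfected and the endogenous gene together. Of 6 genes used to check the line, NEFL was the highest, with 2131 to 4278 counts in a library, PAX2 had 55 to 149, and LHX1 had at most 2. Of the markers of other cell types, COL1A2 had no count in any library and PTPRC, CD3E, CDH5, LYZ and DCN had 7 or fewer, while COL1A1 had 549 to 1039. The summed level of the 10 other-cell-type markers found was 30.6 and 36.3 CPM in T4A libraries and 34.3 and 37.3 CPM in WT libraries.

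Across the 42 genes, 6 rose and 6 fell in T4A cells by edgeR's quasi-likelihood test at an adjusted p under 0.05. CCNB1, CKS2, CKS1B, CDKN2C, CDC20 and CCND3 rose, and RBL2, E2F7, RB1, E2F2, SKP2 and CDK2 fell. Higher members made up 14.3% against 10.7% of all genes tested, and lower members 14.3% against 13.0%. In either direction the share was 28.6%, against 23.6% of all genes, so the set as a whole was close to the background. The T4A and WT libraries did not overlap for 24 members, or 57.1%, against 59.0% of all genes. The median log2 fold change of the members was 0.07, with a range of -0.92 to 0.71, and that of all genes was -0.01.

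**Figure D1:**
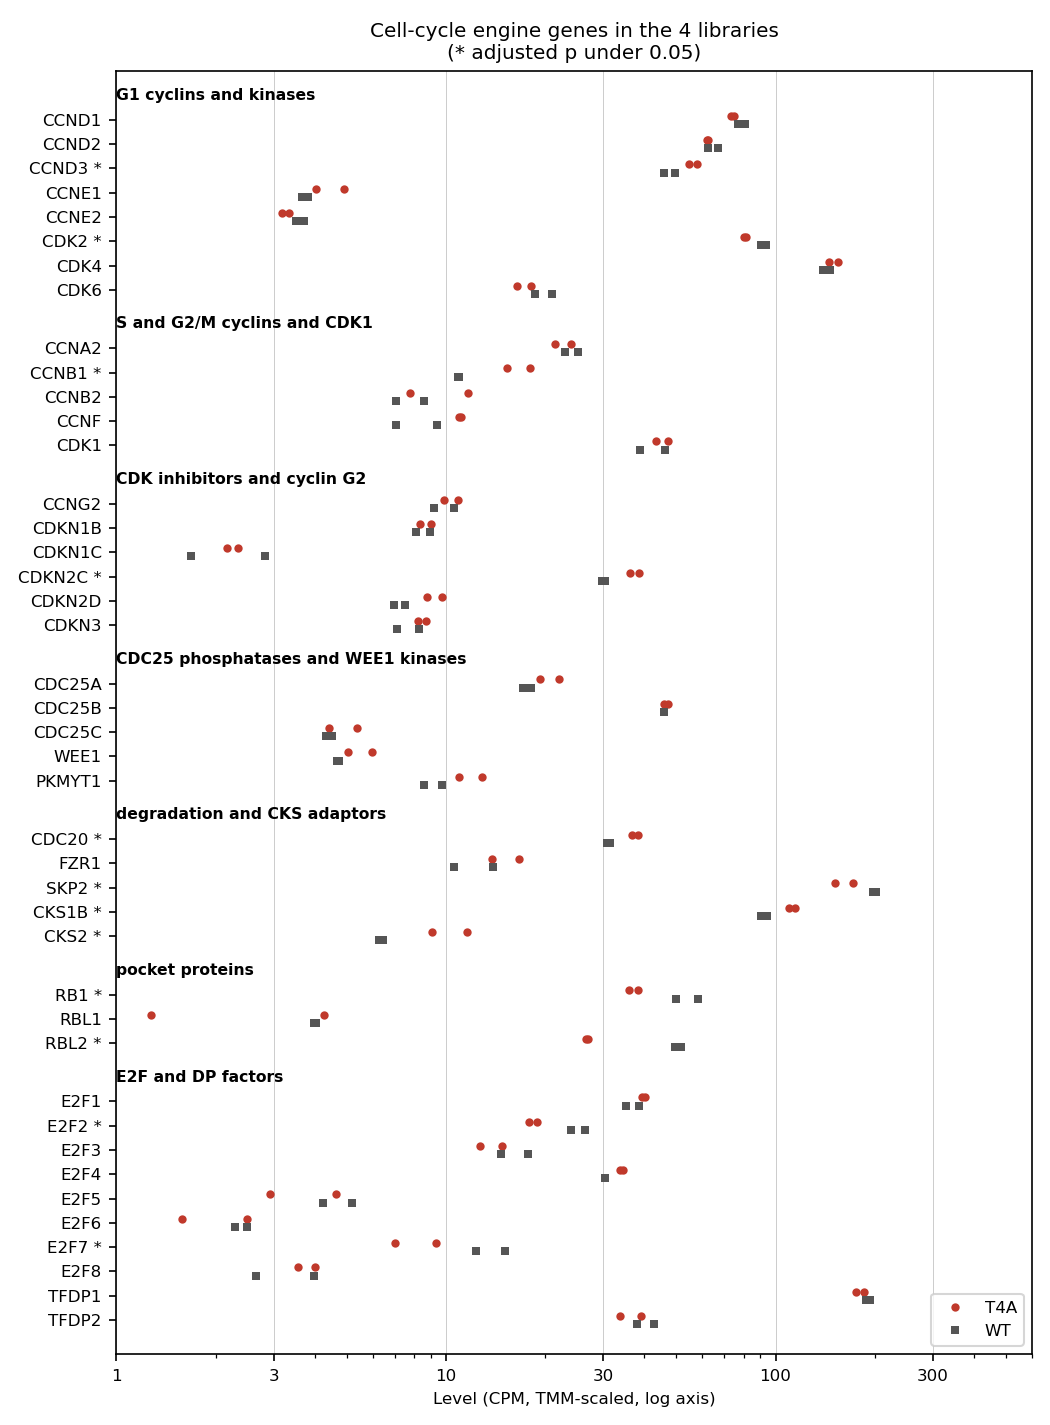
Level of each of the 42 genes in each library (CPM, TMM-scaled, log axis), grouped by role, with T4A libraries as red circles above WT libraries as grey squares and called genes marked by an asterisk. The pairs of points lie wide apart for RBL2, at 26.97 and 26.6 CPM in T4A against 51.5 and 49.6 CPM in WT libraries, and close together for most other genes.

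The G2/M members had a median log2 fold change of 0.25 and the G1/S members one of -0.09, beside -0.01 for all genes. The spread between libraries (SD of a difference between the median levels of 1 T4A and 1 WT library) was 0.15 for G2/M and 0.09 for G1/S members. The G1/S median was thus about as large as this spread. It is a spread of levels in single libraries, not an error of a median fold change of 2 against 2 libraries. With the upper quartile in place of TMM the G1/S median was -0.01 and with library totals -0.17, against 0.33 and 0.17 for G2/M. Among the 12 G2/M members CCNB1, CKS2 and CDC20 rose, 0 fell (also 0 at an unadjusted p under 0.05, in DESeq2 and in limma-voom), and 11 had a log2 fold change above 0, so 25% were called higher. Among the 13 G1/S members CCND3 rose, CDK2, E2F2 and SKP2 fell, and 8 had a log2 fold change below 0, so 7.69% were called higher and 23.1% lower. Of all genes, 10.7% were called higher, 13.0% were called lower, and 8975 of 18139 had a log2 fold change above 0. The summed level of the G2/M members was 233 and 228 CPM in T4A libraries against 199 and 207 CPM in WT libraries, and that of the G1/S members was 714 and 690 CPM in T4A libraries against 748 and 749 CPM in WT libraries. The difference between the groups of genes was not tested, and a shift in the share of cells in a phase cannot be told apart from a change in RNA per cell in these bulk samples.

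Transcript length moved with the fold change in these libraries. In 4 bins of equal number from the shortest to the longest genes, the median log2 fold change was 0.23, 0.09, -0.07 and -0.24, by exonic length, the union of a gene's annotated exons. The G2/M members had a median exonic length of 3041 bases and the G1/S members one of 4761 bases. With the trend on length removed, the G2/M median was 0.13 and the G1/S median -0.03. The 17 members in neither phase had a median of -0.02, and of 0.10 with the trend removed, near that of the G2/M members. The part of length in these differences was not tested beyond this.

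**Figure D2:**
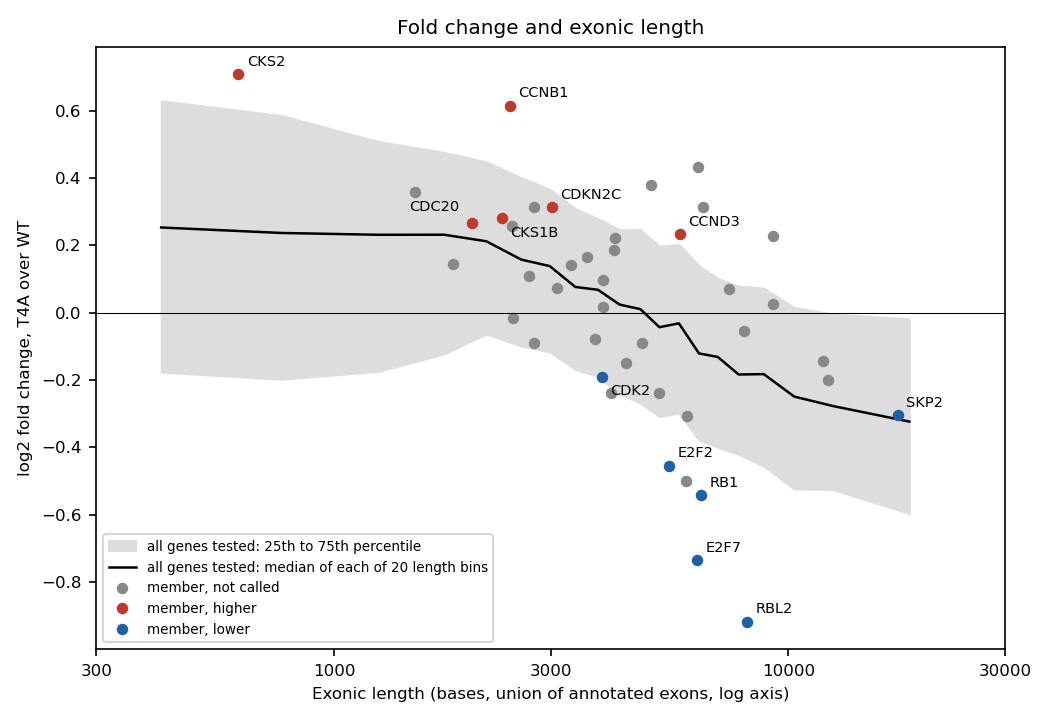
log2 fold change (T4A over WT) against exonic length in bases (log axis) for the 42 genes, coloured by call, over the median and the 25th to 75th percentile of all genes in 20 bins of length. The median falls with length, CKS2, the shortest member at 616 bases, lies above the band, and SKP2, the longest at 17377 bases, lies on the median line.

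Promoters of 7 called genes are shown because many cycle genes share named elements there, and because the members that rose and those that fell can be set side by side. In the 250 bases before the outermost RefSeq start (GRCh38.p14), 3 motifs were searched on both strands. They were the E2F site (TTTGGCGC, TTTCCCGC, TTTGCCGC or TTTCGCGC), the cell-cycle homology region or CHR (TTTGAA or TTCGAA), bound by MuvB complexes, and the CCAAT box (CCAAT), bound by NF-Y. No 2 matches overlapped in a member. Of 24988 promoters of this length, 2.77% held the E2F letters, 14.8% the CHR letters and 33.4% the CCAAT letters. A window was on hand for 31 members, of which 6, 9 and 16 held them, in the same order. The windows of RB1, CDK2 and CCND3 were not among them.

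Of the 5 higher members with a window, CDC20, CKS1B and CKS2 held CHR letters, 4 held a CCAAT box, and none held E2F letters. Of the 4 lower members with a window, E2F2 held E2F letters, E2F7 held CCAAT boxes, and none held CHR letters. Among G2/M members, called or not, 6 of 10 windows held CHR letters, 8 a CCAAT box and 0 E2F letters. In the 8 windows of G1/S members these counts were 1, 3 and 4. Whether the letters go with the call or with the phase was not tested. The 120 bases that end 1 base before the start are given 5′ to 3′ along the gene, with motif matches in capitals. In CKS1B and CKS2 the CHR letters lie at -30 to -25 and at -29 to -24 from the start, with CCAAT boxes at -54 to -50 and at -52 to -48. Of the letters searched, CCNB1 has CCAAT boxes alone and RBL2 has none. CDKN2C, a higher member, and SKP2, a lower one, also have none and are not printed. Other spellings of these elements were not searched, so a promoter without a match may still hold one. For comparison, 23.6% of all genes tested were called. Of the 9 members with CHR letters, 6 were not called (CCNB2, CCNF, CDK1, CDKN3, E2F3 and FZR1), E2F3 with a log2 fold change of -0.24. Of the 6 members with E2F letters, only E2F2 was called. The others had log2 fold changes of 0.22 (CDC25A), 0.11 (E2F1), -0.24 (E2F3), -0.08 (TFDP1) and -0.50 (RBL1). A match is a description of these letters and not of binding.
CKS1B, chr1:154974561-154974680, plus strand: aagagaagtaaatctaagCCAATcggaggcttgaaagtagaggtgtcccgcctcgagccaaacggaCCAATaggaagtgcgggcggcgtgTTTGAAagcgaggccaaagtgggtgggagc
CKS2, chr9:89311075-89311194, plus strand: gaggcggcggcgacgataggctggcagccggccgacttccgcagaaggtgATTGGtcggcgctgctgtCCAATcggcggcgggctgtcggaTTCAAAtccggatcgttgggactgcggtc
CDC20, chr1:43358861-43358980, plus strand: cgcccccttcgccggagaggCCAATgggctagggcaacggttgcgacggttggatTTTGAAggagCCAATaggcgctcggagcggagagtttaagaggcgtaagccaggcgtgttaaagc
CCNB1, chr5:69167030-69167149, plus strand: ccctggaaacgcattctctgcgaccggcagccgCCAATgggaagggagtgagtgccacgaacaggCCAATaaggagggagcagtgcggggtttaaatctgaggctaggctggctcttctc
E2F2, chr1:23531234-23531353, minus strand: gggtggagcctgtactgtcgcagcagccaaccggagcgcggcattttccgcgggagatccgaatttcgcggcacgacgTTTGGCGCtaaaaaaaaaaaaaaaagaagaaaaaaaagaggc
E2F7, chr12:77065570-77065689, minus strand: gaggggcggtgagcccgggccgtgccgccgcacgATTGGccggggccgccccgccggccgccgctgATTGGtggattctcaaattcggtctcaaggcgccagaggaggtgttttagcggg
RBL2, chr16:53434351-53434470, plus strand: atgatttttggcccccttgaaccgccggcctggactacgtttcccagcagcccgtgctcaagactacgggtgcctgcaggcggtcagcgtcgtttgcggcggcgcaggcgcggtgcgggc

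Among the 8 G1 cyclins and kinases, 1 rose and 1 fell, so 25% were called, beside 23.6% of all genes. CCND3 (cyclin D3; chr6:41934933-42050035), a partner of CDK4 and CDK6, had 54.6 and 57.6 CPM in T4A libraries against 45.8 and 49.6 CPM in WT libraries. The groups did not overlap, and the log2 fold change was 0.23 ± 0.08 (SE), at an adjusted p of 0.0413. CDK2 (chr12:55966830-55972789), the partner of cyclins E and A, had 81.1 and 80.1 CPM in T4A libraries against 90.3 and 93.6 CPM in WT libraries. It fell by 0.19 ± 0.06 on the log2 scale (adjusted p = 0.0350), the smallest change among the 12 called members. CCND1 (cyclin D1; chr11:69641156-69654474), the most abundant D cyclin per length, was at 73.1 and 74.9 CPM in T4A libraries against 76.8 and 80.8 CPM in WT libraries. Its groups did not overlap either, but its log2 fold change of -0.09 ± 0.07 was not called (adjusted p = 0.386). CCND2, CCNE1, CCNE2, CDK4 and CDK6 were not called, with log2 fold changes of -0.06, 0.26, -0.15, 0.07 and -0.20.

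Both calls of this group rested on small differences. CCND3 was not called without T4A replicate 2 (log2 fold change 0.19, adjusted p = 0.151), without WT replicate 1 (0.18, adjusted p = 0.321) or without WT replicate 2 (0.29, adjusted p = 0.0622). CDK2 was not called without T4A replicate 2 (-0.18, adjusted p = 0.0962), without WT replicate 1 (-0.21, adjusted p = 0.107) or without WT replicate 2 (-0.17, adjusted p = 0.220). Neither passed in DESeq2. Of the exonic bases of CDK2, 16.8% are shared with other genes, PMEL among them, as are 44.2% of those of CDK4 with TSPAN31, and reads were aligned without strand. The strand setting of the counting is not known here, so it is uncertain whether reads there belong to the neighbour.

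Within a library, shares of a family do not depend on the scaling between libraries. By counts per kilobase of exonic length, CCND3 made up 29.1% and 29.8% of the D cyclins in T4A libraries and 24.5% and 25.8% in WT libraries, while CCND1 made up 47.1% and 46.9% in T4A libraries and 49.7% and 50.8% in WT libraries. Cyclin D3 thus took a larger and cyclin D1 a smaller share in both T4A libraries than in either WT library. CDK2 made up 28.9% and 29.8% of CDK2, CDK4 and CDK6 in T4A libraries and 32.2% and 34.1% in WT libraries. With 2 libraries against 2, an exact two-sided permutation test of a share cannot go below p = 0.33.

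**Figure D3:**
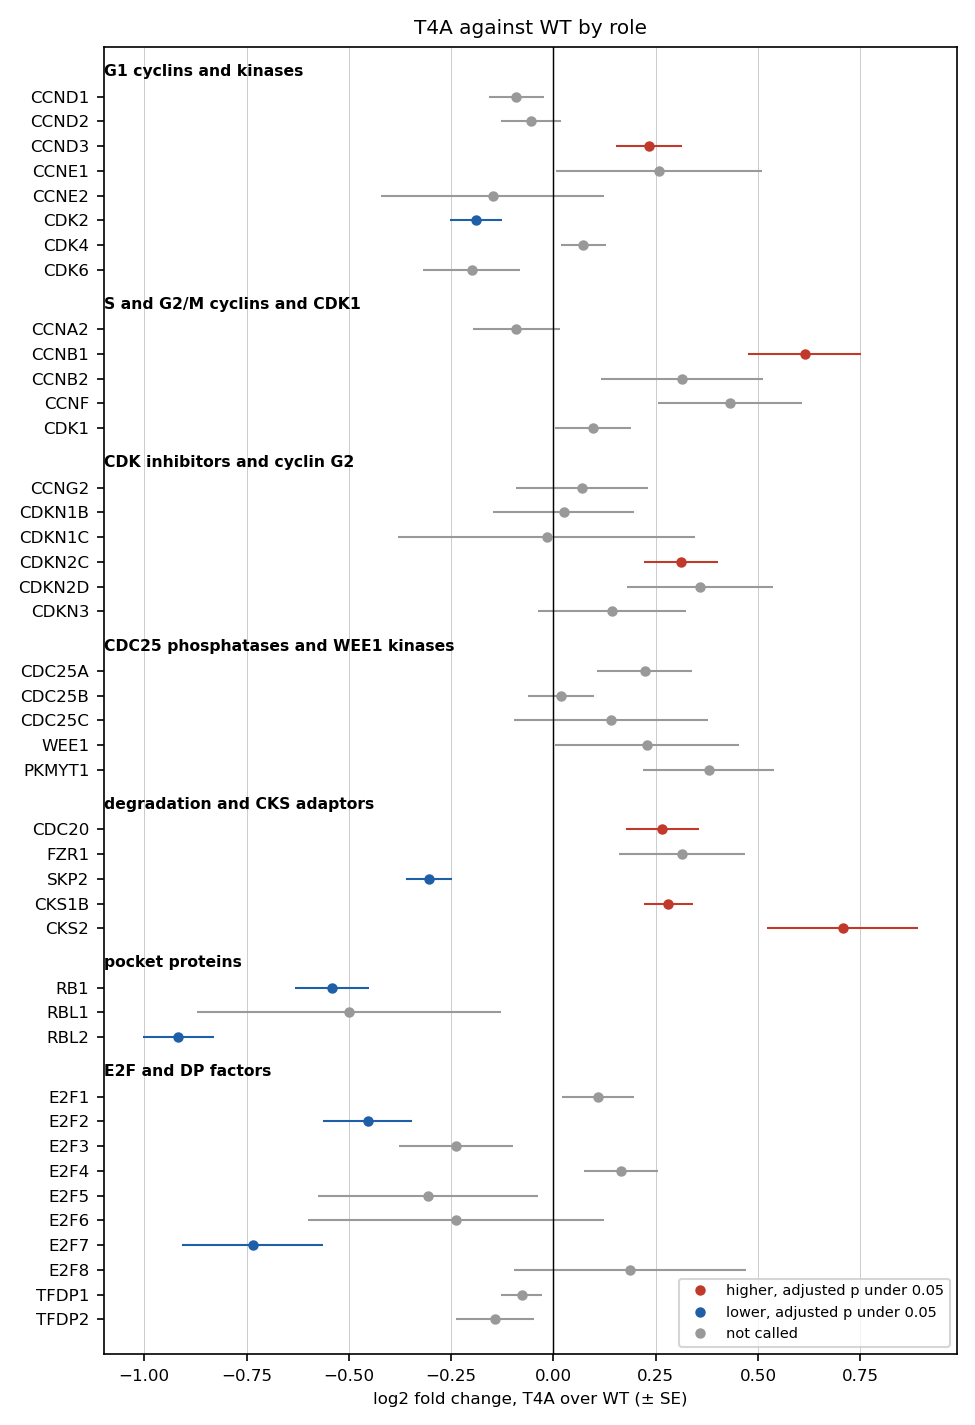
Fold change (log2, T4A over WT, ± SE) of the 42 genes by role, in red where called higher, blue where called lower and grey where not called. The pocket proteins all lie below 0, at -0.54 for RB1, -0.50 for RBL1 and -0.92 for RBL2, and the 5 phosphatases and WEE1-type kinases all lie above 0 without a call.

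Of the 5 S and G2/M cyclins and CDK1, only CCNB1 was called, or 20%, beside 23.6% of all genes. CCNB1 (cyclin B1; chr5:69167150-69178245), which activates CDK1 at entry into mitosis, had 17.98 and 15.4 CPM in T4A libraries against 10.9 and 10.9 CPM in WT libraries. Both T4A libraries lay well above both WT libraries, at a 1.53-fold level (log2 fold change 0.61 ± 0.14, adjusted p = 0.00248). The call held in all 12 alternatives. CCNA2 (cyclin A2) was at 21.4 and 23.9 CPM in T4A libraries against 25.2 and 23.0 CPM in WT libraries, with overlapping groups. The ratio of CCNB1 to CCNA2 counts was 0.840 and 0.642 in T4A libraries against 0.432 and 0.475 in WT libraries. CDK1, the mitotic kinase itself, CCNB2 and CCNF were not called, with log2 fold changes of 0.10, 0.31 and 0.43. CCNB2 turned on 1 library, at 0.57 without T4A replicate 2 (adjusted p = 0.0162) and -0.02 without T4A replicate 1.

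The CDC25 phosphatases, which remove the inhibitory phosphates of the CDKs, and WEE1 and PKMYT1, which add them, gave 0 calls among 5 genes in edgeR at the adjusted threshold. Of all genes, 23.6% were called. The log2 fold changes of the 5 were 0.22 for CDC25A, 0.02 for CDC25B, 0.14 for CDC25C, 0.23 for WEE1 and 0.38 for PKMYT1. Only PKMYT1, 1 of the 5, had an unadjusted p under 0.05 (0.0295), and DESeq2 and limma-voom also called 0. PKMYT1 passed without T4A replicate 2 (0.48, adjusted p = 0.0334), and 31.9% of its exonic bases are shared with other genes.

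Among 5 CDK inhibitors and cyclin G2, CDKN2C alone was called, or 16.7%, beside 23.6% of all genes. CDKN2C (p18; chr1:50960745-50974634), which blocks CDK4 and CDK6, had 38.4 and 36.3 CPM in T4A libraries against 29.7 and 30.5 CPM in WT libraries. The groups did not overlap, and the log2 fold change was 0.31 ± 0.09 (adjusted p = 0.0152). The call was lost without T4A replicate 1 (0.27, adjusted p = 0.0904), without WT replicate 1 (0.30, adjusted p = 0.106), without WT replicate 2 (0.32, adjusted p = 0.0766) and in DESeq2. Another annotated gene covers 20.4% of its exonic bases. CDKN2D, which encodes the related p19, had a log2 fold change of 0.36 ± 0.18, CDKN1B (p27) 0.02 ± 0.17, CDKN1C (p57) -0.02 ± 0.36, CDKN3, a phosphatase of CDKs, 0.14 ± 0.18 and CCNG2 (cyclin G2), linked to arrest, 0.07 ± 0.16.

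The genes of the degradation and adaptor proteins moved in both directions, with 3 of 5 genes higher and 1 lower. These shares of only 5 genes, 60% and 20%, stand beside 10.7% and 13.0% of all genes. CKS2 (chr9:89311195-89316703), a small CDK-binding adaptor, had 11.6 and 9.09 CPM in T4A libraries against 6.44 and 6.25 CPM in WT libraries. Its 1.63-fold higher level was the largest rise among the called members before any correction for length (log2 fold change 0.71 ± 0.18, adjusted p = 0.00755). With the length trend removed it was at 0.46, below CCNF, which was not called, at 0.54. CKS1B (chr1:154974681-154979251), the paralogue that helps SKP2 bind p27, had 114 and 109.7 CPM in T4A libraries against 90.6 and 93.9 CPM in WT libraries (log2 fold change 0.28 ± 0.06, adjusted p = 0.00159). CDC20 (chr1:43358981-43363203), which activates the anaphase-promoting complex in mitosis, had 36.7 and 38.2 CPM in T4A libraries against 30.8 and 31.5 CPM in WT libraries (log2 fold change 0.27 ± 0.09, adjusted p = 0.0357). All 3 hold CHR and CCAAT letters in the promoters printed here, as do members that were not called, such as CCNB2, CCNF, CDK1 and CDKN3. FZR1, the activator used after mitosis, was not called (0.31 ± 0.15), with overlapping groups, and passed without T4A replicate 1 (0.45, adjusted p = 0.0303).

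SKP2 (chr5:36152111-36193530), the F-box protein that marks p27 for destruction, went the other way. It had 172 and 152 CPM in T4A libraries against 202 and 198 CPM in WT libraries and fell by 0.30 ± 0.06 on the log2 scale (adjusted p = 4.25e-04). The ratio of CKS1B to SKP2 counts was 0.666 and 0.723 in T4A libraries against 0.450 and 0.474 in WT libraries, 1.5-fold higher in T4A cells. It sets a gene called higher over one called lower and so restates those calls. For CDC20 to FZR1 the ratio was 2.67 and 2.30 in T4A libraries against 2.91 and 2.27 in WT libraries. SKP2 lay on the length trend of all genes, and its log2 fold change was 0.0027 with the trend removed, against 0.11 for CKS1B, 0.46 for CKS2 and 0.07 for CDC20. The exonic length of SKP2 is a union over all its annotated isoforms, and which of them these cells use was not measured.

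CKS1B and SKP2 were called in every alternative fit with a test, and CKS2 in all but the fit without T4A replicate 1 (0.52, adjusted p = 0.0654). CDC20 passed in none of the fits that left out 1 library, at 0.29 without T4A replicate 1 (adjusted p = 0.0508), 0.24 without T4A replicate 2 (adjusted p = 0.114), 0.26 without WT replicate 1 (adjusted p = 0.194) and 0.28 without WT replicate 2 (adjusted p = 0.151), nor in DESeq2. CKS1B has processed copies elsewhere in the genome, so its counts may be split between them.

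**Figure D4:**
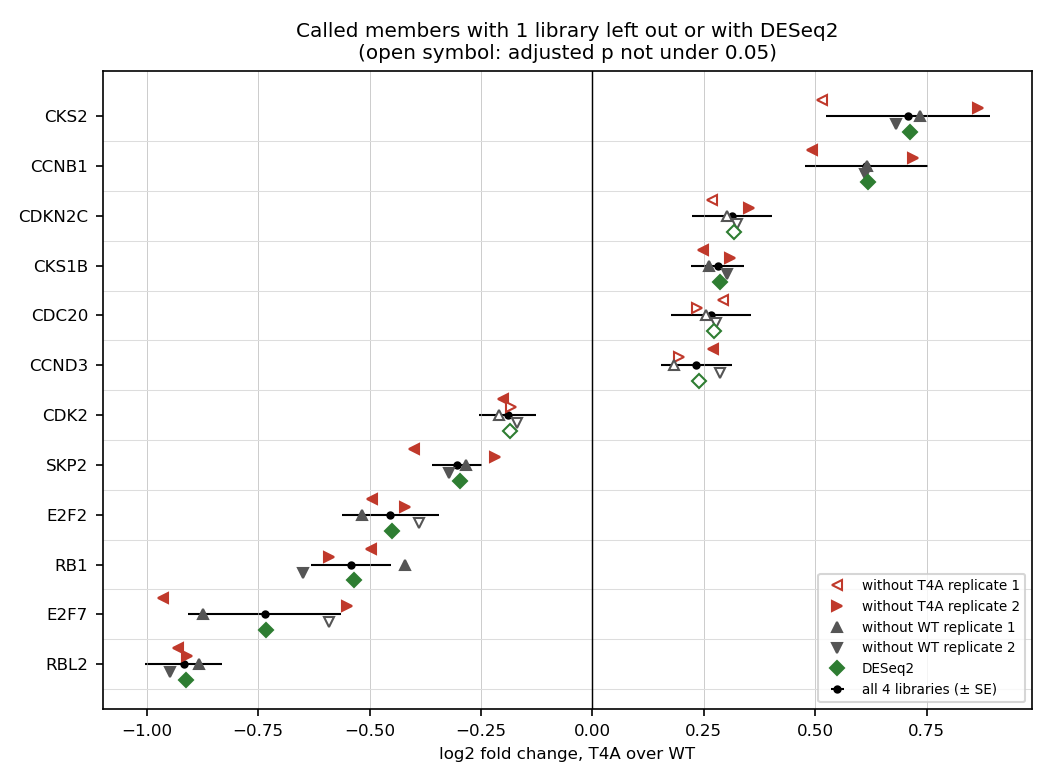
Fold change (log2, T4A over WT) of the 12 called genes with all 4 libraries (black, ± SE), with each library left out in turn and with DESeq2 (coloured symbols, open where the adjusted p was not under 0.05). CCNB1, CKS1B, SKP2, RB1 and RBL2 stay filled throughout. No symbol crosses 0, which leaves little to learn, because the T4A and WT libraries did not overlap for any of the 12 genes.

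Of the 3 pocket proteins, which hold E2F factors inactive, RBL2 and RB1 fell, RBL2 by more than any other member. The share called lower was 66.7% of only 3 genes, beside 13.0% of all genes. RBL2 (p130; chr16:53434471-53491648), the pocket protein of resting cells and of the DREAM repressor complex, had 26.97 and 26.6 CPM in T4A libraries against 51.5 and 49.6 CPM in WT libraries. Its level was 1.89-fold higher in WT cells, and it had the smallest adjusted p of the members (log2 fold change -0.92 ± 0.09, adjusted p = 1.86e-07). RB1 (chr13:48303751-48481890), the retinoblastoma protein, had 35.9 and 38.4 CPM in T4A libraries against 58.05 and 49.9 CPM in WT libraries (log2 fold change -0.54 ± 0.09, adjusted p = 1.43e-04). For both genes every T4A library lay below every WT library, and both calls held in all 12 alternatives. With the length trend removed the values were -0.74 and -0.43. Of the exonic bases of RBL2, 16.4% overlap other genes, among them AKTIP.

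RBL1 (p107), the pocket protein of cycling cells, was not called. It had 97 and 24 counts in T4A libraries, or 4.27 and 1.28 CPM, against 133 and 103 counts, or 3.97 and 4.02 CPM, in WT libraries. The log2 fold change of -0.50 ± 0.37 rested on T4A replicate 2, being -1.64 without T4A replicate 1 (adjusted p = 2.48e-04) and 0.10 without T4A replicate 2. Within the family, RBL2 took 34.5% and 34.7% of the counts per kilobase in T4A libraries against 39.6% and 42.1% in WT libraries, and RB1 took 58.0% and 63.1% in T4A libraries against 56.3% and 53.3% in WT libraries.

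Of the 10 E2F and DP genes, 0 rose and 2 fell in edgeR, so 20% were called, beside 23.6% of all genes. Among those with a log2 fold change above 0, 0 had an unadjusted p under 0.05 or passed in DESeq2 or limma-voom. E2F2 (chr1:23505212-23531233), an activator of S-phase genes, had 18.9 and 17.9 CPM in T4A libraries against 24.0 and 26.4 CPM in WT libraries (log2 fold change -0.45 ± 0.11, adjusted p = 0.00400). E2F7 (chr12:77021251-77065569), an atypical E2F that represses E2F targets, had 9.34 and 7.02 CPM in T4A libraries against 12.3 and 15.1 CPM in WT libraries (log2 fold change -0.74 ± 0.17, adjusted p = 0.00343). The T4A libraries lay below the WT libraries for both genes. Both calls were lost without WT replicate 2, at -0.39 for E2F2 (adjusted p = 0.0791) and -0.59 for E2F7 (adjusted p = 0.0668). The other activators, E2F1 and E2F3, had log2 fold changes of 0.11 ± 0.09 and -0.24 ± 0.14, and E2F8, the second atypical member, had 0.19 ± 0.28. E2F4, E2F5 and E2F6, which act mainly as repressors, had 0.16, -0.31 and -0.24, and the DP partners TFDP1 and TFDP2 had -0.08 and -0.14, none of them called.

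Between the groups, shares within the E2F family did not overlap for E2F1, E2F2, E2F3, E2F4 and E2F7 and overlapped for E2F5, E2F6 and E2F8. By level, 59.0% of all genes did not overlap, so such a split is common in these libraries. Shares of a family also depend on each other, since 1 can grow only as others shrink. By counts per kilobase, E2F1 was the most abundant E2F, with 43.3% and 44.6% of the family in T4A libraries and 39.7% and 40.3% in WT libraries. E2F2 made up 10.0% and 10.0% in T4A libraries against 13.3% and 13.6% in WT libraries, and E2F7 4.32% and 3.40% in T4A libraries against 5.93% and 6.75% in WT libraries. E2F4 made up 27.9% and 28.6% in T4A libraries against 25.7% and 23.7% in WT libraries. E2F4 is the usual partner of RBL2, and the ratio of RBL2 to E2F4 counts was 0.783 and 0.789 in T4A libraries against 1.69 and 1.64 in WT libraries. By exonic length, E2F1 (2690 bases) and E2F4 (3596 bases) are shorter than E2F2 (5462 bases), E2F7 (6291 bases) and RBL2 (8110 bases). The part of length in these shares and this ratio was not tested.

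**Figure D5:**
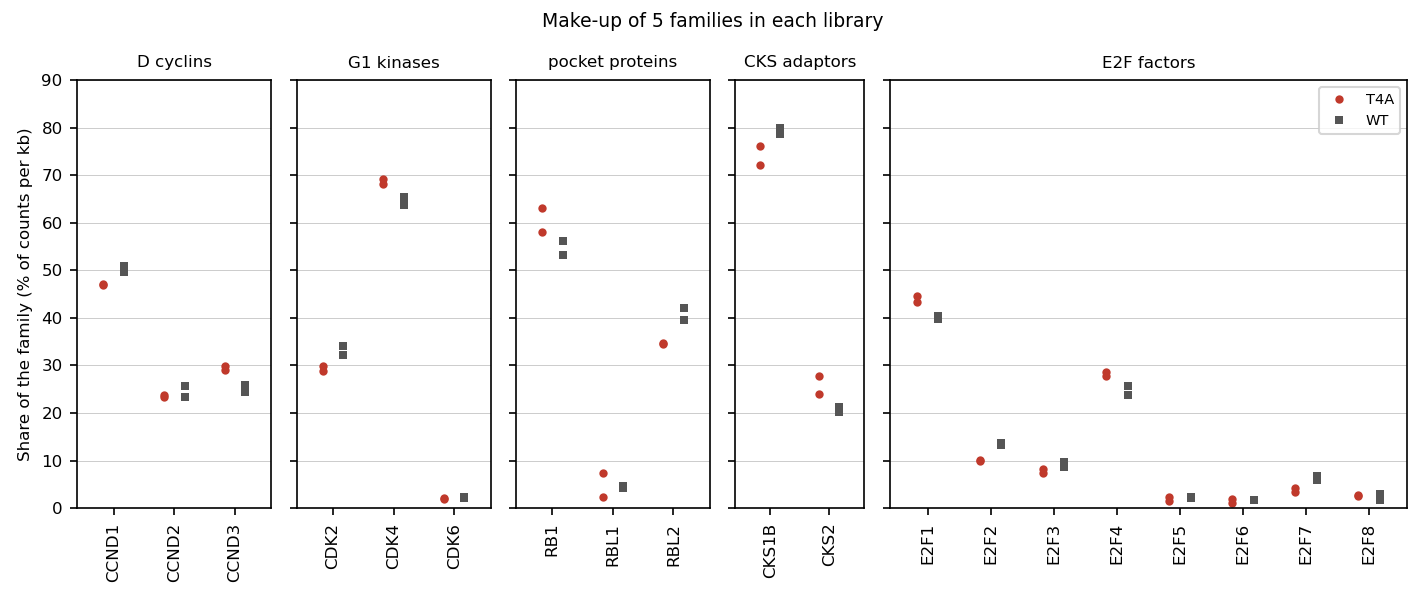
Share of each gene in its family (percent of the family's counts per kilobase) in each library for 5 families, with T4A libraries as red circles left of WT libraries as grey squares. CCND3, CKS2 and E2F1 have larger shares in both T4A libraries and E2F2, E2F7 and RBL2 smaller shares, as for E2F2 with 10.0% and 10.0% in T4A against 13.3% and 13.6% in WT libraries.

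Calls were also set beside the level of the members. Of the 27 members with a mean of 10 CPM or more, 11 were called, with SE of 0.050 to 0.172 on the log2 scale. Of the 15 members below 10 CPM 1 was called, CKS2, and SE ran from 0.173 to 0.372. The share of all genes called at these levels was not counted. The part of depth in these calls was not tested, and the largest SE, that of RBL1, went with a wide gap between its T4A libraries.

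Other genes of the same machinery were counted from lists drawn up by name, with log2 fold changes given for those named. Of 22 subunits and partners of the anaphase-promoting complex and SCF ligases, 8 rose (36.4%) and 2 fell (9.09%), with a median of 0.15, beside 10.7% higher and 13.0% lower of all genes. ANAPC11 (0.62) and UBE2S (0.48), the RING subunit and a ubiquitin-conjugating enzyme, had the smallest p among those that rose, and ANAPC1 (-0.56) and BTRC (-0.51) fell. Of 8 genes of the MuvB core with MYBL1, MYBL2 and FOXM1, which act with the pocket proteins or through CHR elements, MYBL2 (0.28 ± 0.04) rose, or 12.5%, MYBL1 (-0.88 ± 0.11) and RBBP4 (-0.28 ± 0.06) fell, or 25%, and the median was -0.05. A further list held other cyclins, CDKs and a CDK partner, such as those of transcription. Of its 27 tested genes, 1 rose (CDK5, 0.36), or 3.70%, and 5 fell, or 18.5%. CCNT1 (-0.79) and CCNJ (-0.59) had the smallest p among those that fell, and the median was -0.12. Of 12 further inhibitors and mitotic or checkpoint kinases, only CDKN2A, which encodes p16 and p14ARF, was called, at 0.37 ± 0.03, or 8.33% higher, and the median was 0.13.

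Widely used expression lists for the phases were also counted. Of 41 S-phase genes, 4 rose and 11 fell, with a median of -0.12. RPA2 (0.30) and FEN1 (0.31) rose and POLA1 (-0.56) and HELLS (-0.37) fell, all of them genes of DNA replication or chromatin. Of 47 tested G2/M genes, 5 rose and 16 fell, with a median of -0.11, although the G2/M members of the engine had a median of 0.25. UBE2C (0.73) and BIRC5 (0.30) rose, and MKI67 (-0.74) and LBR (-0.46) fell. The shares called higher and lower were 9.8% and 26.8% in the S-phase list and 10.6% and 34.0% in the G2/M list, beside 10.7% and 13.0% of all genes. Neither list was tested as a set.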

How the data were processed

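Poly(A) RNA of 2 T4A and 2 WT libraries was measured. Per the submitters' processing notes, the authors used HISAT2 2.2.1, featureCounts 2.0.1 and Trimmomatic 0.38 with hg38, and the study's methods describe alignment without strand and give no strand setting for the counting. The deposited values are raw counts per gene, with 1 table of 62700 identifiers for each library and neither scaling nor pooling. The sources used here give no rule for fragments with several positions. Symbols, exonic lengths and overlaps came from GENCODE release 44, used for nothing else, with 60877 identifiers matched, and coordinates and promoters from RefSeq GRCh38.p14.

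Counts were tested with edgeR 4.0.16 (R 4.3.3; filterByExpr, TMM, glmQLFit and glmQLFTest, group as the only term), T4A over WT, with Benjamini-Hochberg adjustment over 18139 genes and a threshold of 0.05. The common biological coefficient of variation was 0.114. Libraries of a group differed by more than counting noise, with a chi-square per degree of freedom of 4.56 in T4A and 5.66 in WT. The study calls the libraries biological replicates, but whether each had its own culture is not in the labels. A p-value here therefore rests on the spread between libraries, shared across genes (prior degrees of freedom 17.0), and that spread may be technical. CPM are counts per 1000000 of the TMM-scaled total. The script was tested on simulated data.

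The members and lists were chosen with earlier results of these data known. Values in every library are given for called members, CCND1, CCND3 and CDK2, ranges and counts for the rest, and up to 2 genes with the smallest p in each direction for every other list. RBL1 and CCNA2 were given in full after their values were seen. Ratios of counts and shares of families are given for only some of the pairs and families for which they were formed. The lengths of 42 members were known, and the trend on length was removed by lowess (statsmodels 0.14.6, fraction 0.3). Alternatives were other scalings and filters, DESeq2 1.42.0, limma-voom (limma 3.58.1), a replicate block and each library left out. Where 1 library was left in a group, it was assumed to vary like those of the other group.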

Additional observations from a re-analysis of the deposited data

How the results depend on the processing

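All 12 called members kept their direction in all 12 alternatives with a test, and CCNB1, CKS1B, RB1, RBL2 and SKP2 passed in each of them. For all 12 the T4A and WT libraries did not overlap, so leaving out 1 library could hardly reverse a direction. The other alternatives refit the same libraries, so a kept direction is no separate evidence. With 6 higher and 6 lower members as reported, 3 were higher with library totals alone and 3 with DESeq2, which gave adjusted p-values for 40 members. Leaving out 1 library in turn gave 3 to 6 higher and 3 to 7 lower members. With the trend on length removed, SKP2 was at 0.0027 on the log2 scale. The cause was not tested beyond the construction of each alternative. CDK2 also lost its call with DESeq2 size factors and the upper quartile, CCND3, CDC20 and CDKN2C with library totals, and CCND3 and CDC20 with no filter. Of 30 members not called, 7 passed in some alternative.

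Of all calls, 45.1% were higher as reported (1935 higher and 2351 lower), against 61.0% with the upper quartile (2690 and 1718; 9 and 5 members) and 31.2% with library totals (1352 and 2987; 3 and 7 members). These scalings put the median of all genes at 0.08 and -0.08 on the log2 scale. With a replicate block, 2012 genes were higher and 2432 lower, with 6 and 6 members. Libraries that share a number share nothing else in the labels, and their deviations had a correlation of -0.0038.

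With 2 libraries per group, a member below 10 CPM had an SE of at least 0.173 on the log2 scale, against 0.050 to 0.172 at 10 CPM or more.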
